A study of Mus musculus with 8 samples.

Results

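Mouse embryonic fibroblasts with intact Stat3 were compared with and without 30 minutes of oncostatin M (OSM), over every probe set that carries a single gene symbol. The comparison rests on 4 of the 8 arrays of the series, namely 2 untreated arrays and 2 arrays given OSM at 20 ng/ml, all from 1 spontaneously immortalised STAT3+/+ line grown in 10% serum. The arrays were paired by the number in their titles, so that replicate 2 and replicate 3 each hold 1 untreated and 1 OSM array. The other 4 arrays are of a STAT3-/- line (Stat3 KO) under the same conditions. They enter the filter on low values, the choice of a gene's probe set, the estimate of the spread and 1 comparison between lines. Since a single line stands for each genotype, a difference between the lines cannot be told apart from an effect of Stat3. The titles give the treatment. No label says that cultures were separate, so the p-values reflect array-to-array spread alone, and part of it may be technical.

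Of 12488 probe sets in the table, 10833 had 1 gene symbol. Those with a log2 value of at least 5 on at least 2 of the 8 arrays numbered 6155 and stood for 5195 genes. Each gene is represented by its brightest probe set, the one with the highest mean over all 8 arrays. Values are log2 expression after GCRMA, a normalization that pulls dim probe sets to low values, and values under 5 were read as near background.

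OSM is a cytokine of the interleukin-6 family. It binds a receptor made of gp130 (Il6st) with either the OSM receptor chain (Osmr) or the leukaemia inhibitory factor receptor (Lifr), and the attached JAK kinases phosphorylate Stat3, which then enters the nucleus and binds DNA, while a second branch runs through Ras and the MAP kinases. Genes that need no new protein for their transcription can respond within minutes, among them the feedback inhibitor Socs3, AP-1 subunits and the EGR factors. In fibroblasts OSM is known for inducing chemokines, adhesion molecules and the protease inhibitor Timp1.

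The cells and arrays were checked first. Of 13 fibroblast markers on the array, 10 read at least 5 on all 4 Stat3 WT arrays, among them Col1a1, Col1a2, Col3a1, Fn1 and Pdgfrb, while Thy1 and the Vim probe set stayed under 5 on all of them. The mean level of these 13 markers was 10.44 and 11.75 untreated and 10.13 and 11.51 with OSM. All but 1 of 14 leukocyte markers (Csf1r), 4 of 8 endothelial, 10 of 13 muscle, 8 of 11 neural, 6 of 9 adipocyte, 9 of 11 epithelial and all 6 cartilage and bone markers stayed under 5 on the 4 arrays. The arrays differed by number more than by treatment. Pearson correlations over all probe sets were 0.991 and 0.994 within the pairs and 0.967 and 0.968 within the groups. The 18S 3' control read 11.02 and 11.03 in replicate 2 and 15.13 and 14.75 in replicate 3, in each case untreated and OSM. For actin, whose 3' probes minus its 5' probes tell of RNA integrity, the gap was 0.53 and 0.51 in replicate 2 and 1.11 and 1.01 in replicate 3. Both controls therefore moved with the pair and little with OSM. The Stat3 probe set that was brighter over all 8 arrays read 10.11 to 11.94 on the Stat3 WT arrays and 7.81 to 9.17 on the Stat3 KO arrays. The other one read 9.80 to 12.57 on the Stat3 WT arrays, 2.76, 2.86 and 2.94 on 3 Stat3 KO arrays and 7.30 on the array labelled Stat3 KO OSM replicate 3, where the targeted gene goes against the label. The Stat3 WT differences, such as 3.39 for Hk2, come from the Stat3 WT arrays alone, so leaving that array out cannot change them. It changes only the estimate of the spread, as leaving out any other Stat3 KO array does.

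Hk2, which phosphorylates glucose in the first step of glycolysis, rose with OSM. Its level was 9.25 untreated and 12.71 with OSM in replicate 2, and 9.91 and 13.23 in replicate 3. Both OSM arrays lay above both untreated ones. The log2 difference was 3.46 in one pair and 3.32 in the other, with a mean of 3.39 ± 0.15 (SE), a 10.5-fold difference. It was the only probe set called by limma after Benjamini-Hochberg adjustment (adjusted p = 0.0219), which is 0.0148% of the 6756 tested. In the Stat3 KO line Hk2 differed by 3.09 and 3.08, and the difference between the lines was 0.31 ± 0.22 (SE, limma adjusted p = 0.61). The call for Hk2 was lost without the replicate block (adjusted p = 0.523) and without the filter (adjusted p = 0.276). It was also lost when any 1 of the 4 Stat3 WT arrays was left out (adjusted p = 0.28 to 0.492), where 1 pair remains and the spread comes from the Stat3 KO arrays alone.

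The response was read further by size, without a test. A gene was placed in a higher set where the log2 value was at least 1 (2-fold) higher with OSM in both pairs, and in a lower set where it was at least 1 lower in both. The higher set held 108 of 5195 genes (2.08%) and the lower set 49 (0.943%). Just inside and outside the limit, the smaller pair difference was 1.01 and 0.99 for the higher set and -1.01 and -0.98 for the lower set. Among probe sets 136 were higher (2.01%) and 63 lower (0.933%) by this rule, and 5 passed 2-fold in opposite directions. Without pairing, 53 (0.784%) had both OSM arrays at least 2-fold above both untreated ones and 17 (0.252%) at least 2-fold below. Over all 6756 probe sets the differences of the pairs, which share no array, correlated at 0.569 (Pearson) and 0.458 (Spearman), across probe sets that are not independent.

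The higher set reached further from 0 than the lower set. Its median log2 difference was 1.82 and its largest 5.47, and 46 genes had a mean difference of at least 2 and 16 of at least 3. In the lower set the median was -1.58, the most negative value was -2.999 (Rhpn2), 8 genes lay at -2 or below and none at -3 or below. OSM arrays lay above both untreated arrays for 75 of the 108 higher genes and below both for 30 of the 49 lower genes, where 8.51% of all genes did not overlap upward and 9.97% downward. Both sets were chosen by differences on these same arrays, which by itself favours such separation, so these counts are a description only. The filter on low values was passed through the Stat3 WT OSM arrays alone by 3 higher genes (Gcnt2, Tnfaip3 and Tnfsf9), which therefore had to differ, through the untreated ones alone by 1 lower gene (Dlx2), and through Stat3 KO arrays by Socs1 and Ccl9. Serpinb2 also needed the Stat3 WT OSM arrays to pass. Elsewhere it read at least 5 only on the array labelled Stat3 KO OSM replicate 3 (5.30). In 9 of the higher genes both untreated arrays read under 5, and in 4 of the lower genes both OSM arrays did, so the size of these differences is not exact. Of the 157 genes, 22 had other kept probe sets, and in 19 these moved the same way in both pairs. In limma 879 probe sets (13.0%) had an unadjusted p under 0.05, 455 higher (6.73%) and 424 lower (6.28%), and none of the lower ones passed after adjustment.

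**Figure D1:**
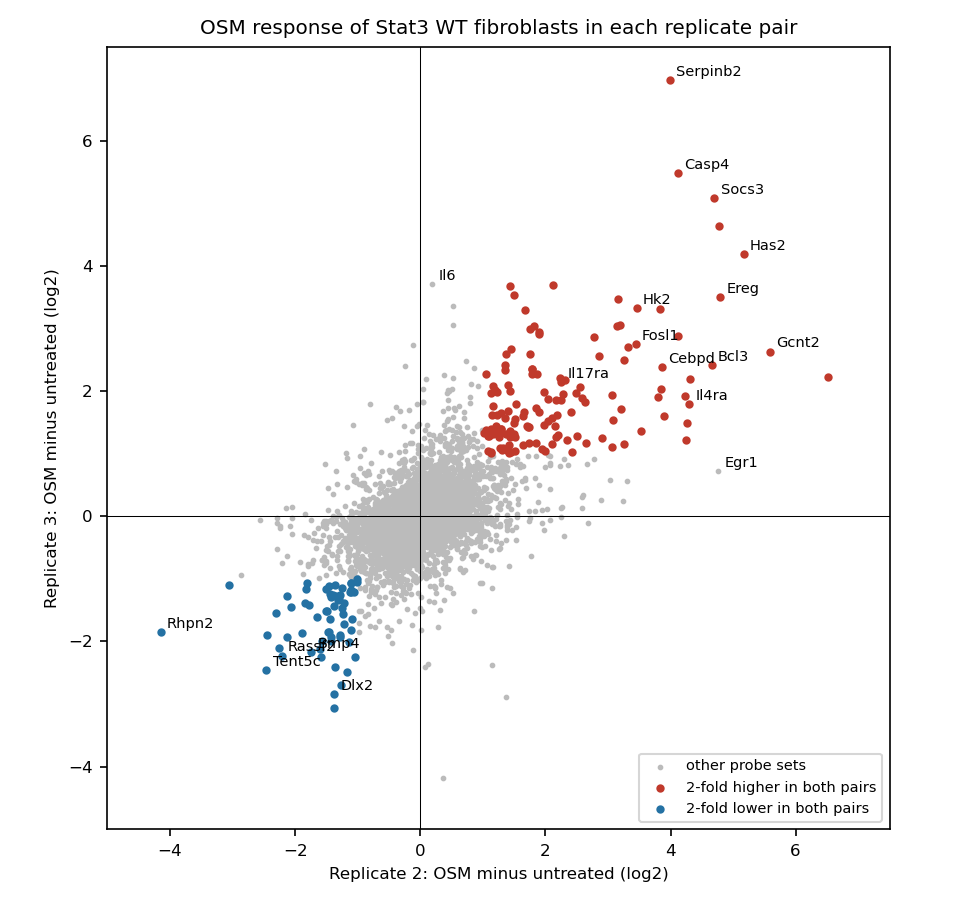
Log2 difference between OSM and untreated Stat3 WT arrays in replicate 2 (x axis) and replicate 3 (y axis), 1 point for each of 6756 probe sets, with red points 2-fold higher in both pairs (136) and blue points 2-fold lower in both (63). Red points reach much further from 0 than blue ones, and Egr1 and Il6 are marked as genes that were high in 1 pair only.

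Within the higher set the 20 genes with the smallest p included Hk2, and 18 others are described next. Has2, which makes the matrix polysaccharide hyaluronan, read 4.94 and 7.20 untreated and 10.11 and 11.40 with OSM in replicates 2 and 3. Serpinb2, an inhibitor of plasminogen activators, read 2.38 and 2.94 untreated and 6.36 and 9.91 with OSM, so that both untreated arrays were near background and only a large change, not its size, can be read. Ereg, a ligand of the EGF receptor, read 4.09 and 5.16 untreated and 8.89 and 8.67 with OSM. In all 3 genes the OSM arrays stood clear of the untreated ones, but Serpinb2 was kept by the filter only because it was high with OSM.

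Fosl1, an AP-1 subunit, read 6.71 and 6.31 untreated and 10.16 and 9.07 with OSM, a difference of 3.10 ± 0.29 (SE). Il17ra, a subunit of the interleukin-17 receptor, differed by 2.25 and 2.15 in the pairs, and its other probe set by 2.55 and 2.06. Snai1, a zinc finger repressor known from epithelial-mesenchymal transition, differed by 2.23 and 2.22. The pairs of Il17ra and Snai1 differed by nearly equal amounts, and those of Fosl1 by 3.44 and 2.76. Choosing genes by small p in a paired fit favours such near-equal pairs. For Has2, Fosl1, Il17ra and Snai1 the limma adjusted p was 0.0659 each, so none of them passed. Il17ra passed with the 4 Stat3 WT arrays fitted alone (adjusted p = 0.0469), and Has2, Snai1 and Il17ra with 1 probe set per gene (adjusted p = 0.0476 each).

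The other genes described from these 20 had adjusted p-values from 0.0659 to 0.104. The adhesion molecules Icam1 and Selp differed by 2.01 ± 0.21 and 2.40 ± 0.31 (SE). The TNF-family ligand Tnfsf9 read 3.16 and 3.64 untreated and 5.94 and 6.50 with OSM, and since its untreated arrays were near background the size of its difference is not exact. The transcription factor Cebpd reached 14.61 and 14.96 with OSM from 10.75 and 12.57. The lipid phosphatase Plpp3 (1.78), the kinase Map3k6 (1.63), the sialyltransferase St3gal1 (2.07) and the immunoproteasome subunit Psmb8 (3.01) were higher in log2 by the values in brackets. So were the interferon-inducible Ifi204 (1.42, but 0.07 and 0.44 in the pairs on its other kept probe set) and the ribosome assembly factors Noc4l (2.17) and Rcl1 (1.47). Ctrl, a chymotrypsin-like protease gene, differed by 2.07, with both arrays of replicate 3 under 5.

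**Figure D2:**
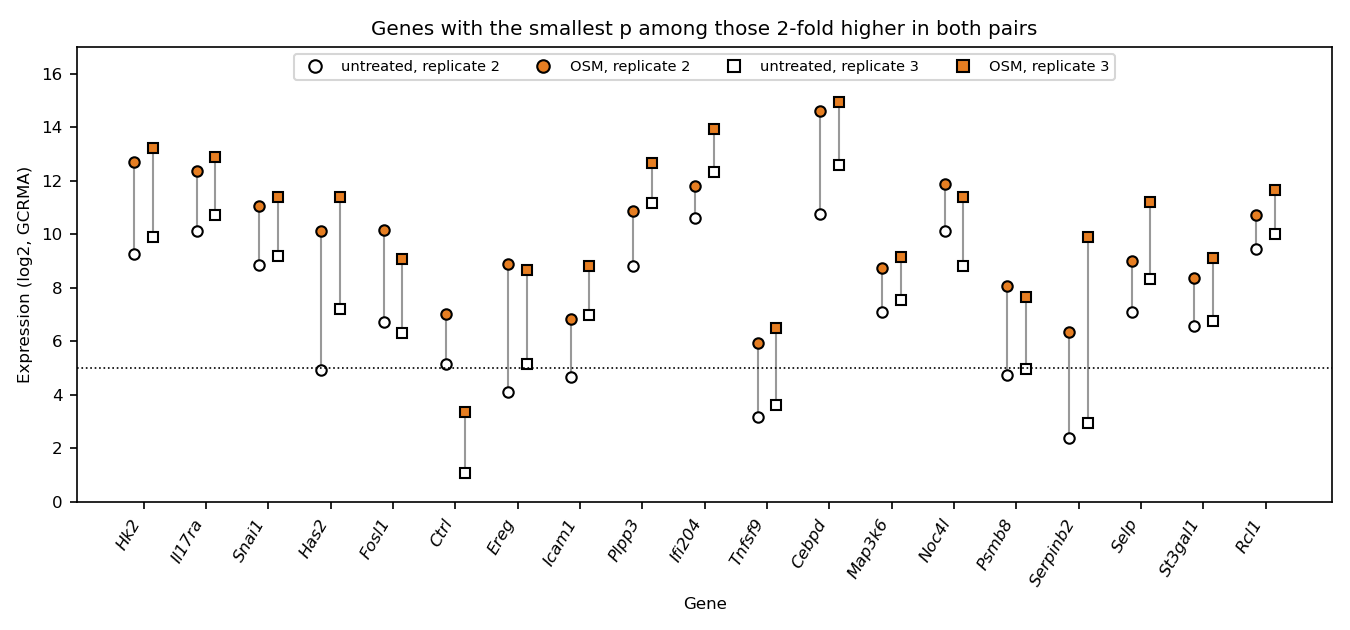
Log2 expression (y axis) of 19 of the 20 genes (x axis) with the smallest p in the higher set, on each Stat3 WT array, with open symbols untreated, filled symbols OSM, circles replicate 2, squares replicate 3, grey lines joining a pair, and a dotted line at log2 5. For Plpp3 and Icam1 the lines have similar length although the replicates start from different levels, while the lines of Serpinb2 and Cebpd differ in length. The genes were chosen by small p in a paired fit, which favours lines of similar length.

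In the lower set the 20 genes with the smallest p were read in the same way. Bmp4, a bone morphogenetic protein, read 13.03 and 11.69 untreated and 11.29 and 9.52 with OSM in replicates 2 and 3, and its other probe set differed by -1.43 and -1.92. Pdgfrb, a receptor of platelet-derived growth factor, read 10.92 and 10.60 untreated and 9.35 and 8.60 with OSM. The OSM arrays lay below the untreated ones for both genes. Tent5c, a poly(A) polymerase, read 6.31 and 7.24 untreated and 3.85 and 4.78 with OSM. Rassf2, a Ras-association protein, read 10.10 and 9.69 untreated and 7.89 and 7.47 with OSM. Limma adjusted p-values were 0.0659 for Bmp4, Tent5c and Rassf2 and 0.0779 for Pdgfrb, short of the limit.

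Among others of these 20 lower genes, pair differences were nearly equal for some, such as Hopx. They were not for others, such as Apcdd1 (-2.31 and -1.54). The Wnt receptor Fzd2 differed by -1.54 ± 0.16, the homeodomain genes Hopx and Hoxa2 by -1.31 ± 0.13 and -2.03 ± 0.23, and the growth factor Tgfb3 by -1.76 ± 0.24 (SE). Pair differences were -1.30 and -1.32 for Hopx. The transcription factors Sox4 (-1.31), Scx (-1.59), known from tendon, and Pbx3 (-1.50, but -0.32 and -0.31 in the pairs on its other kept probe set) and the Wnt inhibitor Apcdd1 (-1.93) were lower by the log2 values in brackets. Cited2, a coregulator that restrains hypoxia-inducible factor, read 13.09 and 13.22 untreated and 10.64 and 11.32 with OSM. Sesn1, a stress-response sestrin, differed by -1.51 in each pair, and Mid1ip1, a regulator of fatty acid synthesis, by -1.90 and -1.87. The rest were Scel (-1.86), Mras (-1.34), Zfp101 (-1.62), Slc22a23 (-1.92) and Cacna1a (-1.32). Cacna1a read 5.57 and 3.53 untreated and 4.22 and 2.25 with OSM, so the size of its difference is not exact. It passed the filter only through untreated arrays of replicate 2, in Stat3 WT (5.57) and Stat3 KO (5.37). The adjusted p-values of all 20 lay between 0.0659 and 0.116.

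**Figure D3:**
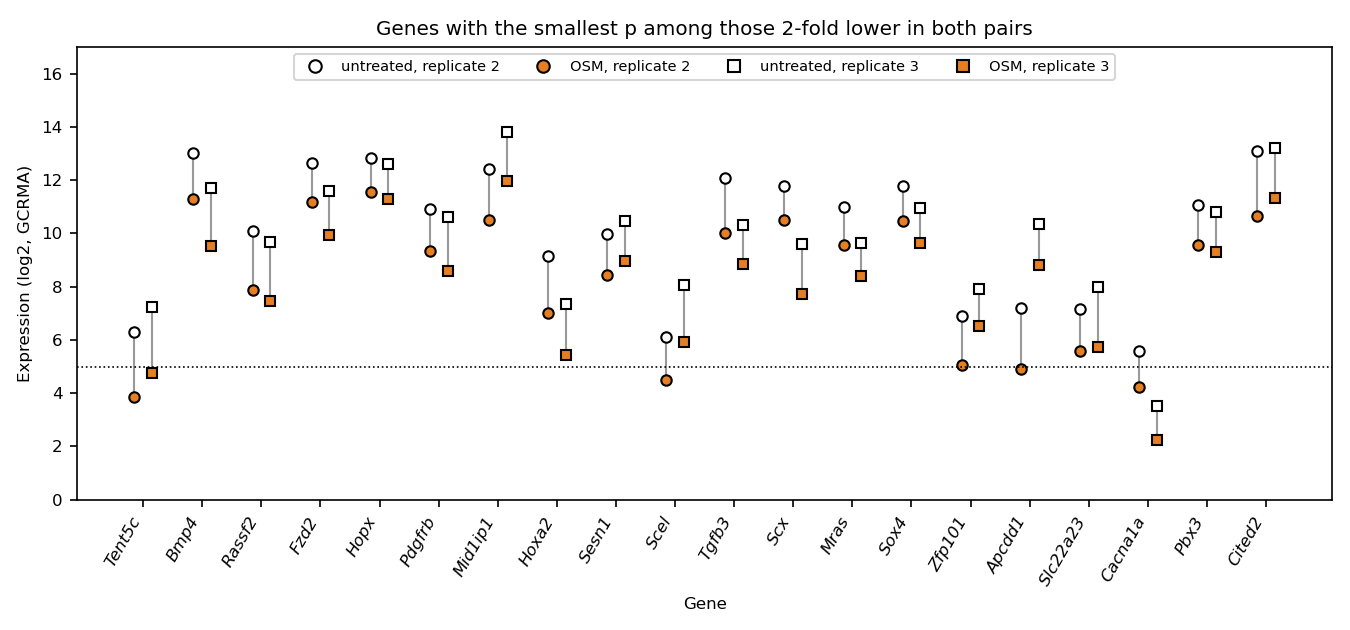
Log2 expression (y axis) of the 20 genes (x axis) with the smallest p in the lower set, with the same symbols as for the higher genes and a dotted line at log2 5. Each OSM symbol sits below its own untreated symbol, as the rule for the lower set requires. For genes such as Hopx and Sesn1 the lines of both pairs are nearly equal, which choosing by small p in a paired fit favours.

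Members of the gp130 pathway were read by role. Of the receptor chains, Osmr went from 9.91 to 12.81 in replicate 2 and from 12.98 to 14.22 in replicate 3, so the untreated array of replicate 3 lay above the OSM array of replicate 2. Il6st went from 11.99 to 12.76 and from 11.30 to 12.41, a difference of 0.94 ± 0.15 (SE, adjusted p = 0.119). Lifr differed by 0.81 and -0.40, in opposite directions. Osmr and Il6st were thus higher in both pairs and Lifr was not.

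Of the kinases and factors, Jak2 read 10.78 and 11.02 untreated and 12.18 and 12.71 with OSM, while Jak1 differed by -0.29 and -0.53. Stat3 read 10.11 and 10.50 untreated and 11.82 and 11.94 with OSM, a difference of 1.57 ± 0.24 (SE, adjusted p = 0.116), and its other probe set differed by 2.19 and 1.62. For Jak2 and Stat3 the groups did not overlap. Of the feedback inhibitors, Socs3 read 9.10 and 8.72 untreated and 13.80 on both OSM arrays, and its other probe set differed by 4.77 and 4.63. Socs2 differed by 4.24 and 1.22 with overlapping groups, and Socs1 stayed under 5 on all 4 arrays, so that its place in the higher set lies within background values. The difference of Socs3, 4.89 ± 1.30 (SE), had an adjusted p of 0.233 in limma. Its error includes the Stat3 KO pairs, which differed by 0.81 and, with the array labelled Stat3 KO OSM replicate 3, by 6.60. With the 4 Stat3 WT arrays fitted alone the adjusted p was 0.0225. Leaving out any 1 Stat3 KO array likewise leaves the spread to the Stat3 WT pairs. Such a fit therefore cannot show that the array labelled Stat3 KO OSM replicate 3 kept Socs3 from passing.

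Of 44 listed gp130 receptors, ligands, kinases and inhibitors 25 were tested. Among them Socs3, Socs2, Jak2, Stat3 and Osmr were in the higher set, as was Socs1 within background values, and none were in the lower set, 12 were above 0 in both pairs and 7 below, and the median log2 difference was 0.35. Over all 5195 genes 26.6% were above 0 in both pairs and 41.4% below, with a median of -0.06, and every list count here is read against these shares and against 2.08% and 0.943% for the 2-fold sets. No list member other than Hk2 passed the test. Lists were chosen with earlier results of these data known, and some genes stand in several.

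The 32 tested STAT3 target genes had 11 members in the higher set and 1, the cyclin Ccnd1, in the lower set. Of them 20 were above 0 in both pairs and 3 below, with a median of 0.94 (1.03 in replicate 2 and 0.62 in replicate 3). Bcl3, an I-kappa-B family coregulator, read 6.82 and 8.88 untreated and 11.48 and 11.30 with OSM. Il4ra, a chain of the interleukin-4 receptor, went from 9.62 to 13.92 and from 13.56 to 15.34. Both pairs of Il4ra point upward, but its untreated level in replicate 3 is close to its OSM level in replicate 2. Timp1, which inhibits matrix metalloproteases, differed by 1.71 ± 0.37, and Vegfa, an angiogenic growth factor, by 1.41 ± 0.30 (SE, adjusted p = 0.185 for both). The circadian and cytokine-induced repressor Nfil3 differed by 1.79 and 2.35. Cebpb (1.29 and 0.39) and Myc (1.68 and 0.61) were higher in both pairs without reaching 2-fold in both. Mcl1 differed by 0.06 and -0.10 and Pim1 by -0.08 and -0.48. The median of the same list in the Stat3 KO line was 0.62.

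Of 21 tested immediate early transcription factors 7 were in the higher set and none in the lower set, 13 were above 0 in both pairs and 5 below, and the median was 0.46. The higher members were Fosl1, Egr2, Junb, Atf3, Klf10, Bhlhe40 and Nfil3. Egr2, a zinc finger factor, read 5.07 and 5.81 untreated and 7.36 and 7.75 with OSM. Junb, an AP-1 subunit, differed by 1.98 and 1.99, and its other probe set by 4.31 and 2.19. Egr1 went from 6.64 to 11.40 in replicate 2 and from 11.07 to 11.79 in replicate 3, so both OSM arrays were alike and the untreated arrays were not. Fos read 2.70 and 7.95 untreated and 3.09 and 7.75 with OSM, without a difference beyond its error (0.10 ± 0.24, SE). Both its arrays of replicate 2 were near background, so only replicate 3 can be read. Id2, Id3 and Klf4 were lower in both pairs, Id3 by -1.01 and -0.98 and Klf4 by -1.15 and -0.55.

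Among 24 other early response genes 6 were in the higher set (Has2, Plk2, Zfp36, Tnfaip3, Pim3 and Ier3) and 1 in the lower set (Ccn2), with 14 above 0 in both pairs, 3 below and a median of 0.72. Zfp36, which binds AU-rich messages and promotes their decay, read 7.76 and 9.05 untreated and 9.41 and 10.72 with OSM. Ier3, an early survival gene, reached 14.11 and 14.91 from 11.47 and 13.74. Ccn2, a matricellular growth factor, read 11.33 and 6.27 untreated and 10.04 and 4.33 with OSM, and so differed far more by replicate than by treatment. Il6 itself differed by 0.19 in replicate 2 and 3.71 in replicate 3.

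Of 14 tested MAP kinase feedback genes and EGF receptor ligands 5 were higher (Fosl1, Ereg, Errfi1, Phlda1 and Dusp6) and 1 lower (Ccnd1) by 2-fold, with 10 above 0 in both pairs and a median of 0.71. Errfi1, an inhibitor of the EGF receptor, went from 7.37 to 11.64 and from 10.21 to 11.70. Dusp6, a phosphatase of ERK, went from 9.48 to 13.01 and from 10.57 to 11.93. In both genes the OSM arrays lay above both untreated ones, and the pair that started lower showed the larger difference. Hbegf, another EGF receptor ligand, differed by 1.42 and 0.21, and the phosphatase Dusp1 by 0.12 and 0.23.

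Among 24 NF-kB and chemokine genes 7 were in the higher set and none in the lower set, 17 were above 0 in both pairs and 3 below, and the median was 0.51. The monocyte chemokines Ccl7 and Ccl2 went from 9.63 to 13.86 and from 11.41 to 14.48 in replicate 2, and from 13.48 to 15.40 and from 14.59 to 15.70 in replicate 3. The neutrophil chemokine Cxcl5 read 7.33 and 14.01 untreated and 10.59 and 15.17 with OSM. These chemokines were higher with OSM in each pair, and Cxcl5, Ccl2 and Ccl7 were also much higher in replicate 3 before OSM. Cxcl12, a chemokine made constitutively by stromal cells, differed by -0.68 and -0.63 on its brightest probe set, which kept it out of the lower set, and by -1.25 and -1.15 on another, which was 2-fold lower in both pairs. Vcam1, an adhesion molecule, differed by 0.74 and 0.60.

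Of 24 receptors for other cytokines and growth factors 5 were in the higher set and 3 in the lower set, 10 were above 0 in both pairs and 10 below, and the median was -0.09. The higher ones were Il17ra, Il1r1 (2.04 and 1.88 in the pairs), Il13ra1 (2.49 and 1.97), Tnfrsf1a (1.29 and 1.40) and Il4ra. The lower ones were Pdgfrb, the lysophosphatidic acid receptor Lpar1 (-1.25 and -1.46) and the fibroblast growth factor receptor Fgfr2 (-1.43 and -1.29, with -1.09 and -0.38 on its other kept probe set). Pdgfra differed by -0.77 and -0.63.

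The 33 tested interferon-stimulated genes had 7 members in the higher set and none in the lower set, with 20 above 0 in both pairs, 5 below and a median of 0.79. Psmb8 read 4.74 and 4.96 untreated and 8.06 and 7.67 with OSM. The guanylate-binding protein gene Gbp2 went from 10.21 to 12.36 and from 12.28 to 13.73, and the GTPase gene Ifi47 from 4.51 to 8.63 and from 7.84 to 10.73. The peptide transporter Tap1 went from 5.24 to 8.50 and from 8.87 to 11.37. Ifi47, Tap1 and Gbp2 were higher in replicate 3 than in replicate 2 with and without OSM, and Psmb8 was not. The median of this list in the Stat3 KO line was 1.53.

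Glucose and hypoxia genes were tested as 2 lists. Of 18 glycolysis genes only Hk2 and the glucose transporter Slc2a1 (1.13 and 1.97) were 2-fold higher in both pairs, 10 were above 0 in both and 4 below, and the median was 0.17. Slc2a1 read 10.01 and 9.21 untreated and 11.13 and 11.17 with OSM. Pfkp, a phosphofructokinase, differed by 0.73 and 1.05 and lactate dehydrogenase Ldha by 0.33 and 0.94. Of 15 hypoxia-linked genes Vegfa and the mitophagy gene Bnip3 were 2-fold higher in both pairs, 13 were above 0 in both, 1 was below, and the median was 0.81. Ndrg1 differed by 0.80 and 1.82, Ddit4 by 0.67 and 1.32 and the prolyl hydroxylase subunit P4ha2 by 0.68 and 1.04. Hif1a, the regulated subunit of hypoxia-inducible factor, differed by 1.05 and 0.45. Most of the 15 thus differed upward in both pairs by less than 2-fold in 1 of them. In the Stat3 KO line the list medians were -0.05 for glycolysis and 0.28 for hypoxia.

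None of 32 matrix genes was in a 2-fold set, with 7 above 0 in both pairs, 17 below and a median of -0.11. Col3a1 differed by -0.57 and -0.33, but its other kept probe sets differed by -0.25 and 0.21 and by 0.27 and -0.27. None of 31 proliferation genes was in a 2-fold set, and 18 were below 0 in both pairs and 1 above, with a median of -0.32. The licensing factor Cdt1 differed by -0.82 and -1.03, the motor Kif11 by -0.84 and -1.41 and the phosphatase Cdc25c by -1.07 and -0.96. Their share below 0 in both pairs was above the 41.4% of all genes, and their levels differed by replicate too, Kif11 reading 11.91 and 7.88 untreated. Of 19 proteases and inhibitors 3 were higher, namely Timp1, the metalloprotease Adam19 (a mean of 1.89) and the collagenase Mmp13 (1.67 and 3.30), with 10 above 0 in both pairs, 4 below and a median of 0.28.

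Of 21 BMP and TGF-beta genes 1 was in the higher set, the activin antagonist Fst (1.90 and 2.95), and 2 in the lower set, Bmp4 and Tgfb3, with a median of -0.03. Smad1, a BMP-responsive factor, differed by 0.85 and 0.94 and the inhibitory Smad6 by -1.41 and -0.60. Of 11 Notch and Wnt genes Fzd2 was in the lower set, and the median was -0.13. Of 11 mesenchymal transcription factors Snai1 and Runx1 (1.95 and 1.08) were in the higher set, while Snai2 differed by -0.46 and -0.74, and the median was -0.10. Of 6 tested HOX genes Hoxa2 was in the lower set and Hoxa5 differed by -0.98 and -1.51, with a median of -0.16. Of 15 p53 targets and CDK inhibitors the death receptor Fas (2.11 and 1.57) was higher and Sesn1 lower by 2-fold, with a median of -0.13. Of 22 metallothionein and antioxidant genes the thioredoxin reductase Txnrd1 (1.13 and 1.01) was higher, with a median of 0.08.

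Contractile genes, heat shock genes, the mitochondrial respiratory chain, cholesterol genes and ribosomal proteins had no member in either 2-fold set. Their medians were -0.01 over 13 genes, -0.02 over 24, -0.04 over 31, 0.06 over 17 and 0.02 over 15. Of the 11 tested fibroblast markers Pdgfrb was in the lower set, 8 were below 0 in both pairs and 1 above, with a median of -0.17. The other marker lists had at most 4 tested members, none in the higher set, and 1 in the lower set, the myelin gene Mbp among the neural markers (-1.38 and -1.44, but 0.08 and -0.08 on its other kept probe set). In bulk RNA, fewer cells of a type and less RNA per cell cannot be told apart.

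**Figure D4:**
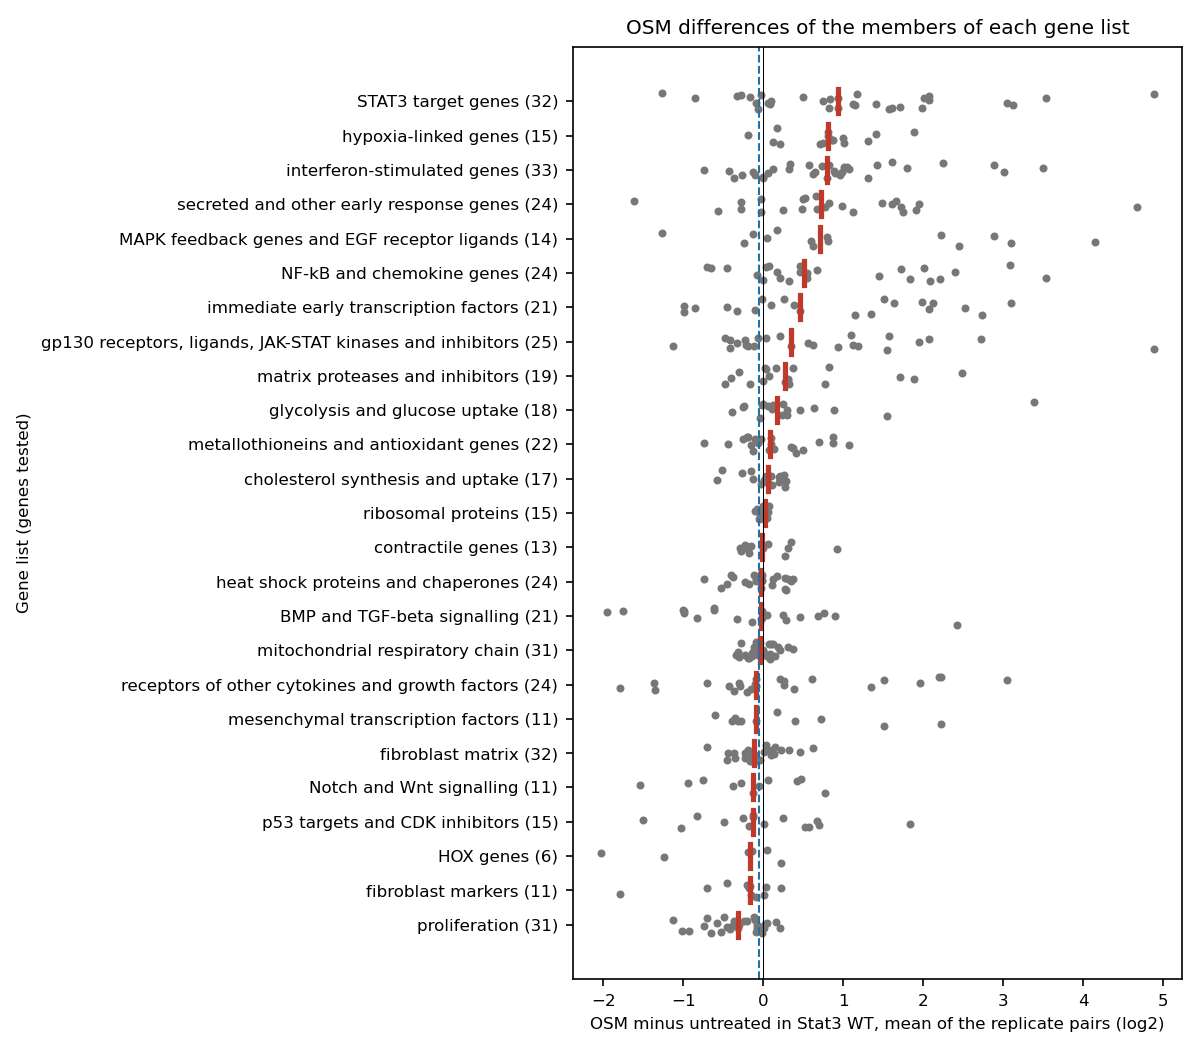
Mean log2 difference between OSM and untreated Stat3 WT arrays (x axis) for each tested member (grey point) of the 25 lists with at least 5 tested genes (y axis, number tested in brackets), with the list median as a red bar and the median of all genes as a dashed blue line at -0.06. STAT3 target, hypoxia-linked and interferon-stimulated genes have the highest medians, at 0.94, 0.81 and 0.79, and proliferation genes the lowest, at -0.32.

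Promoter sequences were set beside these sets, because STAT factors bind a palindrome of the letters TTCNNNGAA, with TTCCNGGAA as its stricter form. RefSeq promoter windows of 300 bases (250 before and 50 after a start, build GRCm38.p6) were found for 82 of the 108 higher genes, 33 of the 49 lower genes and 4244 of the 5195 genes tested, and each motif was searched on both strands in every window of a gene. TTCNNNGAA was present for 17 of the 82 higher genes (20.7%), 1 of the 33 lower genes (3.03%) and 8.08% of all genes tested, and in 8.3% of all 32851 windows. The stricter form, which overlaps it, was present for 5 higher genes (6.1%), no lower gene, and 1.41% of all genes tested. The form with 4 bases between the arms was present for 9 higher genes, 2 lower genes (6.06%) and 6.24% of all genes tested. The AP-1 motif TGANTCA was present, in the same order, for 15.9%, 3.03% and 6.79%, the CArG box for 3.66%, 3.03% and 1.81%, and the cAMP response element TGACGTCA for 3.66%, 0.0% and 3.46%. The hypoxia core ACGTG was present for 35.4%, 33.3% and 31.2%, and the E-box CACGTG, which contains it, for 12.2%, 18.2% and 12.9%. The sets were chosen by their values, so these shares are a description, and a match is not a site.

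The windows of 7 higher genes show where these letters lie. The first 6 sequences are the 250 bases before the start for Socs3 (chr11:117969367-117969616, minus strand), Icam1 (chr9:21015690-21015939, plus), Pros1 (chr16:62854057-62854306, plus), Txnrd1 (chr10:82860091-82860340, plus, 1 of 3 windows), Zfp36 (chr7:28379229-28379478, minus) and Psmb8 (chr17:34197945-34198194, plus), with TTCNNNGAA in capitals. The last is that of Hk2 (chr6:82774455-82774704, minus), the gene that passed the test, whose window holds no TTCNNNGAA and has the hypoxia core ACGTG, here on the opposite strand, in capitals. All are from RefSeq, build GRCm38.p6, written 5′ to 3′.
Socs3: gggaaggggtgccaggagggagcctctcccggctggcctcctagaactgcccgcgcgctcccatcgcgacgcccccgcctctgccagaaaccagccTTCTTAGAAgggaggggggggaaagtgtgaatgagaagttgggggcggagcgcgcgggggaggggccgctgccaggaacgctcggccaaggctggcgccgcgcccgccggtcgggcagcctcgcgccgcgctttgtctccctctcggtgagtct
Icam1: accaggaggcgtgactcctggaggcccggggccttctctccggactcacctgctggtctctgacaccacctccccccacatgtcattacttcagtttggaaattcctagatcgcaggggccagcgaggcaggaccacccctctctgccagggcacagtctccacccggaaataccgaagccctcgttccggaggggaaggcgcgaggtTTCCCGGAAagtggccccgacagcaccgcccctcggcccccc
Pros1: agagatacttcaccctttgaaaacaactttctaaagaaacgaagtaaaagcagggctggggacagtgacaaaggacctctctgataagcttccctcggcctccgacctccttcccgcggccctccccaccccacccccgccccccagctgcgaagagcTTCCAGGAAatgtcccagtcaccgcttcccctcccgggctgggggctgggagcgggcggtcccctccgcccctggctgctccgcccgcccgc
Txnrd1: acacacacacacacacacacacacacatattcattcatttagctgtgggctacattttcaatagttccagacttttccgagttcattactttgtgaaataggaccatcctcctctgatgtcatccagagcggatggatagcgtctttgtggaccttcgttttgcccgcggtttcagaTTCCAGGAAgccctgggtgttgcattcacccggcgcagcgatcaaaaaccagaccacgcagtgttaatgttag
Zfp36: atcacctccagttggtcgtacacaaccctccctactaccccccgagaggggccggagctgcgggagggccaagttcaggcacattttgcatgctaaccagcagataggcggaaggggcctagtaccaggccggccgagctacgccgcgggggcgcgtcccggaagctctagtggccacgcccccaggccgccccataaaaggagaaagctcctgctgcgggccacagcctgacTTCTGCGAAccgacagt
Psmb8: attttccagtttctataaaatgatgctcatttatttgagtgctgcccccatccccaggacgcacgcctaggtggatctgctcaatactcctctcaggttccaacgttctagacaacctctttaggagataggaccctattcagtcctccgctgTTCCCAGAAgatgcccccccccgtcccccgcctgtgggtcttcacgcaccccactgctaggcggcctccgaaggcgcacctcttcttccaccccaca
Hk2: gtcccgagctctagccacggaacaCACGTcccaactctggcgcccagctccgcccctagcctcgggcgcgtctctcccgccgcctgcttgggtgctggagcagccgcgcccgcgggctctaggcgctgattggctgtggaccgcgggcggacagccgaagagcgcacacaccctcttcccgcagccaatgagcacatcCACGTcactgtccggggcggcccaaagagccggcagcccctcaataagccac

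In these windows the motif of Socs3, TTCTTAGAA, begins 154 bases before the start, and that of Icam1, TTCCCGGAA, begins 42 bases before it. The letters of Icam1, Pros1 and Txnrd1 are of the stricter form. Pros1, which encodes the anticoagulant protein S, read 6.73 and 9.54 untreated and 9.15 and 11.21 with OSM, and Txnrd1 read 11.55 and 11.75 untreated and 12.68 and 12.76 with OSM. The other higher genes with TTCNNNGAA were Fas, Gbp7, Gcnt2, Igtp, Myd88, Noc4l, Plscr1, Pprc1, Serpinb2, Sphk1 and Tnfrsf1a. Members of the STAT3 target list without these letters in their windows included Bcl3, Junb, Stat3, Il4ra, Osmr, Nfil3 and Timp1.

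Whether the response differed from that of the Stat3 KO line was tested as the difference between both OSM effects. Only 1 probe set passed (0.0148% of 6756), that of Socs1, which stayed under 5 in Stat3 WT cells, and 546 (8.08%) had an unadjusted p under 0.05. That call was lost with the block shared by both lines (adjusted p = 0.913), without a replicate block (1.0), with the filter at log2 7 (0.152), with values under 5 set to 5 (0.598) and without any 1 of 7 arrays (0.0748 to 0.426). Without the array labelled Stat3 KO OSM replicate 3, the difference between the lines was -5.98 for Socs1 and -7.44 for the semaphorin gene Sema7a. In that fit the Stat3 KO effect rests on 1 pair, and the spread comes from the Stat3 WT pairs alone. With all arrays, no other gene named here can be called different between the lines. Of the 108 higher genes 49 (45.4%) were also 2-fold higher in both Stat3 KO pairs, which is 43.8% of the 112 genes higher there. Of the 49 lower genes 8 (16.3%) were 2-fold lower in both Stat3 KO pairs, which is 28.6% of the 28 lower there. The 2-fold shares over all genes in the Stat3 KO line were 2.16% and 0.539%. In replicate 2 alone, which leaves out the array labelled Stat3 KO OSM replicate 3, 63 of the 108 and 15 of the 49 genes were 2-fold higher or lower, against 10.8% and 5.08% of all genes.

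In the Stat3 KO line 89 of the 108 higher genes were above 0 in both pairs and 2 below 0 in both, and 36 of the 49 lower genes were below 0 in both and 5 above. The same shares over all genes were not computed for the Stat3 KO pairs, so these counts have no background to be read against. The Stat3 KO median was 1.29 for the higher and -0.66 for the lower set, against 0.01 over all genes tested. In replicate 2 alone it was 1.28 and -0.49. Both sets were chosen on the Stat3 WT values, which by itself favours larger values in Stat3 WT. Has2 was close in both lines (4.11 and 5.22 in the Stat3 KO pairs, a difference of 0.01 ± 0.54, SE), and so was Hoxa2 (-2.14 and -1.70). Icam1 differed by 0.12 and 0.03 in the Stat3 KO pairs, Selp by -0.11 and -0.50, Map3k6 by 0.04 and 0.10 and Tent5c by 0.25 and 0.59. Some of these levels were low in the Stat3 KO line. Selp read 3.89 and 5.32 untreated and 3.77 and 4.82 with OSM there, at or near background, and Icam1 5.54 to 5.80. Tent5c read 3.84 and 6.24 untreated there, and in replicate 2 a fall from under 5 cannot be read. For Icam1 the difference between the lines was 1.93 ± 0.30 and for Tent5c -2.88 ± 0.29 (SE, limma adjusted p = 0.575 and 0.378). Ereg and Egr2 went the other way in size, with means of 6.85 and 4.67 in the Stat3 KO pairs (limma adjusted p between the lines = 0.575 for both). Ereg read 3.35 and 4.64 untreated in Stat3 KO, near background, so the size of its difference is not exact. Replicate 3 in that line uses the array labelled Stat3 KO OSM replicate 3, where Stat3 goes against the label. Fos, without a difference beyond its error in Stat3 WT, differed by 2.97 and 3.01 in the Stat3 KO pairs. The difference between the lines was -2.89 ± 0.34 (SE, limma adjusted p = 0.391). In replicate 2 Fos read 2.70 and 3.09 in Stat3 WT and 2.70 untreated in Stat3 KO, near background. Only replicate 3 of Fos can thus be read for size, and its Stat3 KO value uses that same array.

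**Figure D5:**
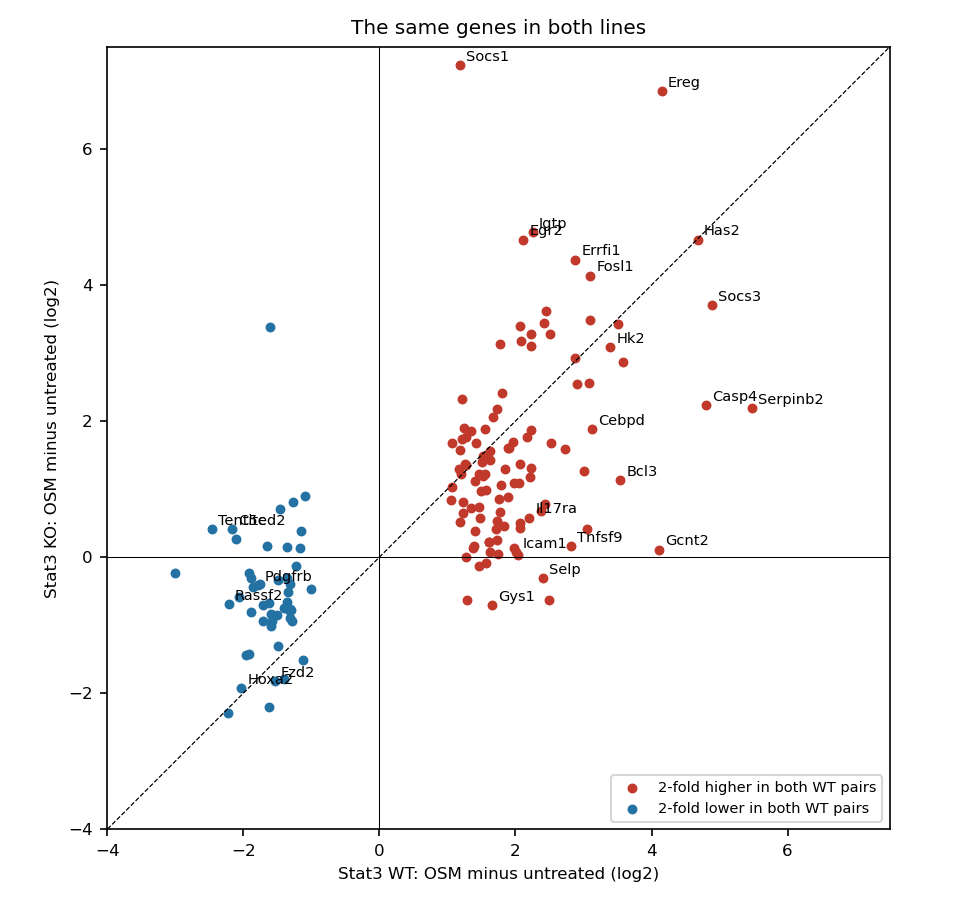
Log2 difference between OSM and untreated arrays in Stat3 WT (x axis) and Stat3 KO cells (y axis), each the mean of 2 pairs, for the 108 higher (red) and 49 lower genes (blue), with a dashed line where both lines are equal. Hk2, Has2 and Hoxa2 lie near the dashed line, Icam1, Selp and Gcnt2 near 0 in Stat3 KO, and Socs1 and Ereg above the line. Gcnt2 read 3.64 to 3.89 and Selp 3.77 to 5.32 on the Stat3 KO arrays, at or near background.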

How the data were processed

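Biotin-labelled target from total RNA was hybridised to Affymetrix mouse arrays, per the labels' protocols. The authors deposited log2 expression values, for which the submitters' processing notes list GCRMA and affy. Tool versions and joint normalization were both not given in the sources used here. Scanner files were not used here. Controls (66) were set aside. The table held 396 probe sets with several symbols and 1193 with none, which were not named. Only those of them that passed the filter were among the 6756 tested. For 10817 probe sets the gene ID was found in RefSeq (GRCm38.p6), which gave names and promoters.

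Tests used limma 3.58.1 under R 4.3.3 (lmFit, eBayes with an intensity trend, two-sided, adjusted over 6756 probe sets, called under 0.05). The model held 4 group means and a replicate block, which is the pair of 1 untreated and 1 OSM array of a line and number, and left 2 residual degrees of freedom. Pairing was checked before fits were compared. The gap between replicates 3 and 2 had a correlation of 0.9106 for both Stat3 WT groups, of 0.7935 for both Stat3 KO groups and of 0.589 to 0.6638 across lines. The meaning of the title number is not stated. The fit was tested on simulated data.

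Members, gene lists and rules were chosen with earlier results of these data known. Of 875 list memberships 724 were on the array and 525 tested. The rule for named genes took 26 genes of the pathway whatever their result, the 20 smallest p in each 2-fold set, each called gene, and up to 4 members per list with both pairs in 1 direction. Genes outside this rule were picked with their values in view. Alternatives were other blocks, a filter at log2 7 or none, values under 5 set to 5, eBayes without trend or robust, the Stat3 WT arrays alone, quantile normalization, median centring, and each array left out in turn. A fit with 1 probe set per gene was added after seeing the data. The number of arrays limits the precision. Of the 20 higher genes with the smallest p, 1 is not reported here.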

Additional observations from a re-analysis of the deposited data

Results flagged for a closer look

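Socs1, a feedback inhibitor of JAK kinases, was marked because its OSM effect differed between the lines, by -6.05 ± 0.26 (SE, limma adjusted p = 0.0148). The call was lost with the block shared by both lines, without a replicate block, with the filter at log2 7, with values under 5 set to 5 (-4.85) and without any 1 of 7 arrays. It read 1.13 and 1.49 untreated and 2.40 and 2.58 with OSM in Stat3 WT cells, all under 5. In Stat3 KO cells it read 1.14 and 4.10 untreated and 8.31 and 11.40 with OSM. Its probe set passed the filter through the Stat3 KO arrays alone, so its 2-fold rule in Stat3 WT lies within background values. With values under 5 set to 5 its Stat3 WT difference was 0.0.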

How the results depend on the processing

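The count of called probe sets for OSM in Stat3 WT cells was 1 and turned to 0 with no replicate block (where 126 probe sets had an unadjusted p under 0.05) and to 0 without the filter (1969 of 12422). It was 2 with values under 5 set to 5, 3 with median centring, 5 with 1 probe set per gene, 9 with the Stat3 WT arrays alone, 11 with the filter at log2 7 and 21 with quantile normalization, and 1 with the replicate block shared by both lines. Leaving out 1 array gave 0 to 14, with 0 for each Stat3 WT array and 10 to 14 for each Stat3 KO array. The difference between the lines had 1 call, and 0 with the block shared by both lines, with no replicate block, with the filter at log2 7 and with values under 5 set to 5, and 0 to 2 with 1 array left out, 2 being without Stat3 KO OSM replicate 3. Separation of all arrays without pairing gave 53 higher and 17 lower probe sets, against 136 and 63 with pairing. Hk2 was called in 14 of 20 settings. Of 140 genes named by the rule, directions turned for Fos (-0.10 with values under 5 set to 5, and -0.20 to 0.39 with 1 array left out), Lifr (-0.40 to 0.81), Mcl1 (0.0416 with median centring, and -0.103 to 0.0593 with 1 array left out), Rpl6 and Rpl7a (-0.0172 and -0.0263 with quantile normalization) and Rps19 (0.021 with median centring). The cause was not tested for any of these.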

Other observations

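Of the 108 higher genes 52 had an untreated level in replicate 3 at least 1 above that in replicate 2 (48.1%, against 19.3% of all genes tested), and 43 lay within 1. In 35 of the 52 the OSM difference was smaller in replicate 3, and the medians over the 52 were 2.11 in replicate 2 and 1.78 in replicate 3. Of 13 genes with the opposite gap, 8 had the larger difference in replicate 3. The untreated level enters both measures, so the 2 are not independent, and the part of the replicate gap in these sizes was not tested.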
